A study of Sus scrofa with 92 samples.

Results

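The genes described here are those of the ATF4 amino acid stress response that the symbols ATF4, ASNS, TRIB3, DDIT3, CHAC1, SESN2, PSAT1, FGF21 and SLC7A11 name. Of these 9 symbols, 7 matched 1 of the 25322 pig Ensembl identifiers in the deposited table, and 6 of those held counts: ATF4 (ENSSSCG00000000084), ASNS (ENSSSCG00000015340), PSAT1 (ENSSSCG00000005287), TRIB3 (ENSSSCG00000007208), SESN2 (ENSSSCG00000029438) and FGF21 (ENSSSCG00000003140). SLC7A11 (ENSSSCG00000022649), the cystine transporter, had 0 counts in all 92 libraries. DDIT3, which encodes the transcription factor CHOP, and CHAC1, a glutathione-degrading enzyme, matched no identifier in the name sources used here and are given by name alone.

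Juvenile male Yorkshire-Landrace pigs were fasted overnight, instrumented and splenectomized under anesthesia, and then received a blunt chest injury, hemorrhage, a liver crush injury and fluid resuscitation. Of 23 animals, 18 went without feed until surgery (FS) and 5 were carbohydrate prefed with a bolus of Karo Syrup before induction (CPF). Liver biopsies were taken at Baseline (B), once the instrumented animal was stable, and again when full resuscitation had run for 2 (FR2), 8 (FR8) and 20 hours (FR20). The series asks how the prefed state alters the liver's response, and every animal of both groups was injured, so each change is read against Baseline biopsies of animals that were already under anesthesia and operated on. Death was recorded for 3 FS and 2 CPF animals. Of 92 biopsies 88 were used: 15 FS animals at B, 18 at FR2, FR8 and FR20, and 5 CPF animals at each timepoint except FR8, which had 4.

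ATF4 is a transcription factor whose protein is made in greater amounts when the α subunit of translation initiation factor eIF2 is phosphorylated, as happens when amino acids run short, when the endoplasmic reticulum is stressed or when heme is lacking. It then raises genes for amino acid synthesis, uptake and tRNA charging together with feedback inhibitors such as TRIB3. Part of this control lies in translation, which RNA counts do not measure. In the liver the same route reaches FGF21, a hormone secreted during fasting and mitochondrial stress.

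The 88 libraries held 6877117 to 16613261 counts (median 12071957). Levels are given as CPM, the counts a library of 1000000 would hold after TMM scaling of library sizes, and were not divided by gene length, so levels of different genes are not compared. A gene was called where edgeR's quasi-likelihood test gave a Benjamini-Hochberg adjusted p under 0.05 over all genes tested and the log2 fold change was at least 1 in size. The hepatocyte marker list (11 of 12 matched, none at 0) summed to 149006 to 221085 CPM of the library total at Baseline in FS animals and to 71189 to 174683 at FR20. The neutrophil list (6 of 8 matched, CSF3R at 0) summed to 0 to 15.3 at Baseline and 3.62 to 70.1 at FR2. The sums of the striated muscle list (6 of 14 matched) stayed between 7.46 and 131 in FS libraries. In biopsies, fewer cells of a type and less RNA per cell cannot be told apart, and the part of these marker shifts in the results below was not tested.

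The Baseline libraries of FS animals 17, 19 and 21 held 4, 899 and 5 albumin counts, against at least 170443 in every library used, and were left out with the FR8 library of CPF animal 3 (4388 counts in all). The other biopsies of animals 17, 19 and 21 were used, but these animals give no change from their own Baseline. A separate limit touches ASNS. In the FR2 and FR8 libraries of FS animal 11, 1157 and 1111 of the 10694 genes with a median over 1 CPM were at 0, against at most 95 in any other library used. All 381 such genes that RefSeq places on the chromosome of ASNS were among them in both libraries, against at most 2 elsewhere. ASNS is therefore listed at 0 in these libraries along with its whole chromosome, and its changes from Baseline in FS animals are given with and without them. Of the 63 genes of this pathway with a median over 1 CPM, ASNS, PPP1R15B and ATF3 were at 0 in both. The pathway lists below are given only with these libraries, so the changes of PPP1R15B and ATF3 include these zeros.

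In FS animals the members did not move as one group. TRIB3 rose early and stayed up, ATF4 itself was higher at FR2 by less than the fold threshold, ASNS and FGF21 stood highest at FR20, PSAT1 dipped and then recovered, and SESN2 fell at all 3 timepoints. In the FR2vB comparison, 3 of the 6 measured members rose and 2 fell, where 5.17% of 13667 genes tested rose and 5.85% fell. In FR8vB, 1 member rose (4.44% of all genes did) and 1 fell (7.39%). In FR20vB, 3 rose (4.68%) and 1 fell (5.25%).

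**Figure D1:**
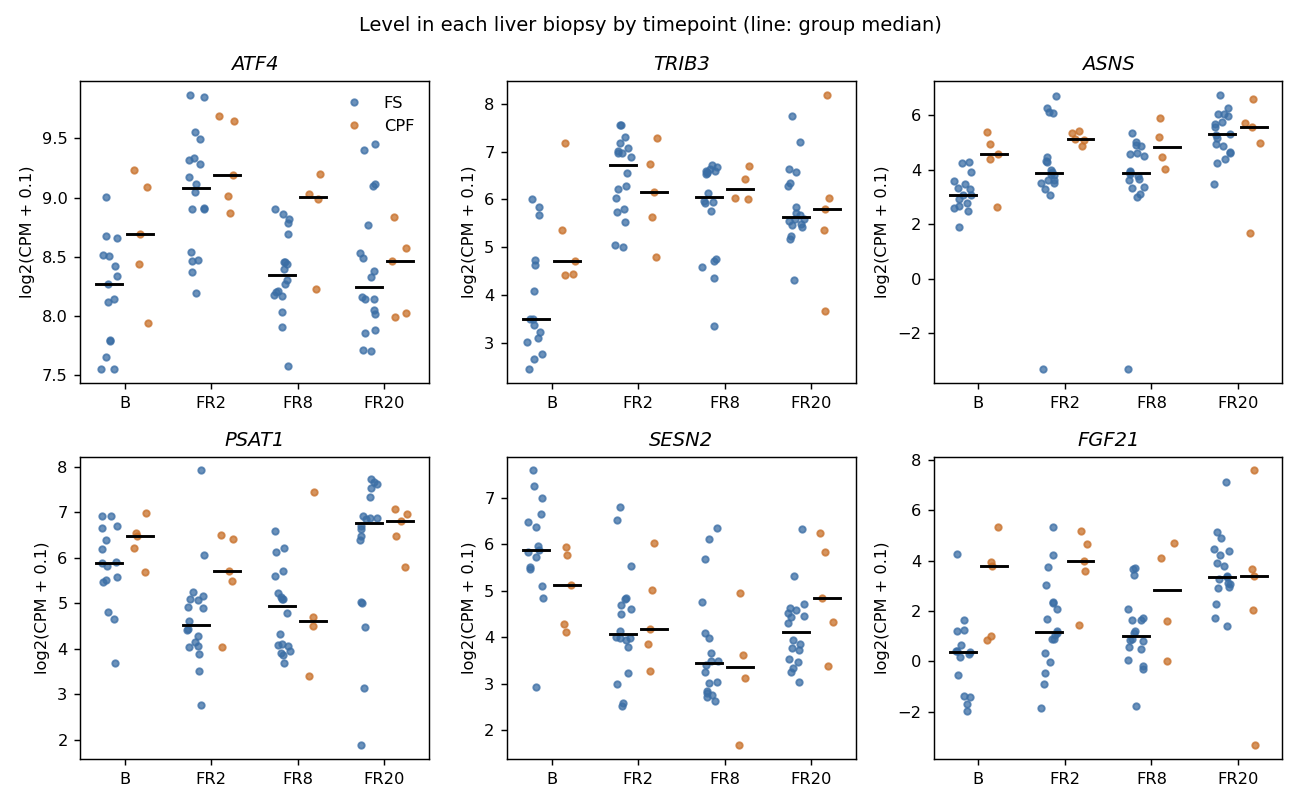
Level of each measured member in every biopsy used, as log2 of CPM plus 0.1, against timepoint, for FS (blue) and CPF (orange) animals, with a black line at each group's median. TRIB3 of FS animals moves from a median of 11.1 CPM at B to 106 at FR2, SESN2 from 58.8 to 16.7, and the 2 lowest ASNS points are the FR2 and FR8 libraries of FS animal 11 at 0.

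ATF4, the regulator, stood at 187 CPM (lowest), 308 (median) and 515 (highest) in the 15 FS Baseline libraries. At FR2 the FS values ran from 292 to 935 with a median of 542, at FR8 from 191 to 478 with a median of 326, and at FR20 from 208 to 700 with a median of 303. The FR2 level was above Baseline in all 15 FS animals with both biopsies, though the ranges of the groups overlapped. The change was 0.82 ± 0.16 (log2 fold change ± SE, adjusted p = 2.48e-05), which is past the p threshold and short of the fold threshold, so ATF4 was not called. It came down again from FR2 to FR8, by −0.68 ± 0.15 (adjusted p = 0.000384), in 16 of 18 animals. At FR8 and FR20 the changes from Baseline were 0.14 ± 0.15 (adjusted p = 0.486) and 0.19 ± 0.16 (adjusted p = 0.359), and neither was called. They were increases in 10 and 7 of the 15 FS animals, and the median change within animals at FR20 was −0.12. With the 3 Baseline libraries without albumin kept, the changes were 0.19 at FR2 (adjusted p = 0.608), −0.49 at FR8 (adjusted p = 0.135) and −0.57 at FR20 (adjusted p = 0.0852).

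At FR20 the 4 highest ATF4 levels of FS animals were 547 CPM in animal 17, 553 in animal 9, 677 in animal 21 and 700 in animal 19. The other 14 values reached up to 436 CPM. This cut was placed after the values were seen, and there is a wide step from 553 to 677 CPM above it as well. Of the 4 animals, 17, 19 and 21 are the ones whose Baseline libraries lacked albumin. Animals 9, 17, 19 and 21 also had the 4 highest sums of the hepatocyte marker list among FS libraries at FR20, 140903, 174683, 153762 and 168642 CPM of the library total, against at most 125875 in the others. PSAT1 was low in the same libraries, as given below. Whether these differences are linked was not tested.

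TRIB3 encodes a pseudokinase that ATF4 induces and that in turn restrains it, and also binds the kinase AKT. In FS animals its level at Baseline was 5.31 CPM (lowest), 11.1 (median) and 64.1 (highest). At FR2 it was 32.1, 106 and 188, at FR8 10, 66.3 and 106, and at FR20 19.8, 49.4 and 213. Baseline values of animals 20, 4 and 10 (51.1, 57.5 and 64.1 CPM) lay inside the FR2 range, and those of the other 12 animals were at most 26.6, below every FR2 value. The FR8 and FR20 ranges overlapped more of the Baseline values, among them 24.5 CPM in animal 22 and 26.6 in animal 11.

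The TRIB3 change was 2.47 ± 0.37 at FR2 (adjusted p = 4.93e-07), 1.91 ± 0.37 at FR8 (adjusted p = 3.9e-05) and 1.86 ± 0.37 at FR20 (adjusted p = 9.13e-05). It was an increase in 15, 13 and 12 of the 15 FS animals. The rise was called at each timepoint whichever animal was left out, with log2 fold changes of 2.36 to 2.67 at FR2. The step from FR2 to FR8, −0.56 ± 0.33 (adjusted p = 0.199), was not called.

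ASNS makes asparagine from aspartate and glutamine and is a standard readout of amino acid shortage. FS levels at Baseline were 3.6 CPM (lowest), 8.4 (median) and 19.3 (highest). Without the libraries of animal 11, the FR2 values were 8.36, 15 and 104 and the FR8 values 7.87, 15 and 40.8, and at FR20 all 18 animals gave 11, 39 and 107. At FR2 4 animals, numbers 20, 10, 9 and 19, stood apart at 66.7 to 104 CPM while the others were at or under 22. At FR20 the whole group had moved up, and 16 of the 18 animals were above the highest Baseline value.

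ASNS rose by 1.15 ± 0.37 at FR2 (adjusted p = 0.0104), and by 1.35 ± 0.30 (adjusted p = 0.000285) without the 2 libraries of animal 11. This call depended on animal 10: without it the log2 fold change was 0.95 (adjusted p = 0.0339), under the fold threshold. Without animals 17, 19 and 21 it was 1.00 after rounding and also just short of the threshold (adjusted p = 0.0225). At FR8 the change was 0.80 ± 0.37 (adjusted p = 0.074), or 0.99 ± 0.30 (adjusted p = 0.00578) without the libraries of animal 11, and was not called either way.

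At FR20 ASNS rose by 2.15 ± 0.37 (adjusted p = 6.55e-06), in 15 of 15 FS animals. With the libraries of animal 11 left out it rose by 2.17 ± 0.30 (adjusted p = 6.87e-08). The increase from FR8 to FR20 was itself called, 1.35 ± 0.33 (adjusted p = 0.0084), or 1.18 ± 0.27 (adjusted p = 0.00527) without those libraries, where 1.19% of all genes rose and 0.278% fell between the same timepoints. ASNS, PSAT1 and FGF21 were the 3 members that rose between FR8 and FR20, and none fell.

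PSAT1 catalyses the transaminase step of serine synthesis. FS levels at Baseline were 12.7 CPM (lowest), 58.8 (median) and 122 (highest). At FR2 they were 6.7, 22.9 and 243, at FR8 12.7, 30.8 and 96.7, and at FR20 3.57, 109 and 212. At FR2 the median was less than at Baseline, with animal 10 far above the rest at 243 CPM and animal 20 next at 66.4. At FR20 13 animals held 83.5 to 212 CPM, while animals 19, 9, 21, 20 and 17 held 3.57, 8.71, 22.1, 31.9 and 32.6. Of these 5, all but animal 20 are the ones with the highest ATF4 and hepatocyte marker sums at FR20.

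The PSAT1 change was −1.03 ± 0.41 at FR2 (adjusted p = 0.0351), a fall in 13 of 15 animals and close to both thresholds. The call was lost without the 2 libraries of animal 11 (−0.91 ± 0.41, adjusted p = 0.0658) and without animal 2, 5, 11, 12, 14, 16, 17, 22 or 23 in turn (−1.02 to −0.92, adjusted p 0.0402 to 0.0676). Without animal terms it was −0.79 (adjusted p = 0.0876), and with the 3 Baseline libraries without albumin kept −0.64 (adjusted p = 0.298). At FR8 and FR20 the changes of −0.80 ± 0.41 (adjusted p = 0.118) and 0.71 ± 0.39 (adjusted p = 0.156) were not called, though without animals 17, 19 and 21 the FR8 change was, at −1.06 (adjusted p = 0.0178). The rise from FR8 to FR20 was called, 1.51 ± 0.40 (adjusted p = 0.0121), in 14 of 18 animals, but not with those 3 Baseline libraries kept (1.33, adjusted p = 0.107).

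SESN2 holds back the growth kinase complex mTORC1 until it binds leucine, and both ATF4 and p53 can induce it. FS levels at Baseline were 7.47 CPM (lowest), 58.8 (median) and 192 (highest). At FR2 they were 5.67, 16.7 and 111, at FR8 6.05, 10.7 and 81.9, and at FR20 8.15, 17.4 and 80. All but 1 of the Baseline values, that of animal 10, were at or above 28.7 CPM. At FR8 15 of the 18 animals were at or under 26.8, and animals 19, 17 and 21 held the 3 highest values, 51.2, 68.8 and 81.9 CPM.

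SESN2 fell by 1.89 ± 0.32 on the log2 scale at FR2 (adjusted p = 5.07e-06), in 13 of 15 FS animals. It fell by 2.53 ± 0.34 at FR8 (adjusted p = 2.28e-07) and by 2.19 ± 0.32 at FR20 (adjusted p = 3.91e-07), each in 14 of 15. Leaving out any 1 animal gave −2.68 to −2.36 at FR8 and did not change a call. SESN2 thus went down at FR2 while TRIB3 went up, both in the same biopsies. The further step from FR2 to FR8 was −0.64 ± 0.31 (adjusted p = 0.111).

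FGF21, the secreted hormone of the group, was near its counting limit in FS livers at Baseline, at 0.159 CPM (lowest), 1.2 (median) and 19.2 (highest). In 4 of these 15 libraries it had 3 counts or fewer. At FR2 the levels were 0.177, 2.13 and 39.7 CPM, at FR8 0.19, 1.9 and 12.8, and at FR20 2.53 (lowest) and 140 (highest), with the middle pair of values at 10.1 and 10.3. At Baseline animal 20 stood apart at 19.2 CPM, with the next highest at 2.99. At FR20 all animals but number 17 were above 2.99, and animal 12 was highest at 140.

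FGF21 rose by 3.73 ± 0.64 at FR20 (adjusted p = 6.99e-06), the largest change of any member in this comparison, in 14 of 15 animals. The increase from FR8 to FR20 was 2.68 ± 0.55 (adjusted p = 0.00157), in 16 of 18. At FR2 the change of 1.51 ± 0.62 (adjusted p = 0.0446) was called, but it was lost without the libraries of animal 11 (1.35 ± 0.64, adjusted p = 0.0805). It was also lost without animal 1, 2, 4, 6, 10, 11, 12, 14, 15, 16, 17, 19, 22 or 23 in turn (1.29 to 1.58, adjusted p 0.0504 to 0.0963), without animal terms (1.37, adjusted p = 0.08), without animals 17, 19 and 21 (1.36, adjusted p = 0.0628) and with no filter on low counts (1.53, adjusted p = 0.0518). At FR8 the change was 1.05 ± 0.64 (adjusted p = 0.186).

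Of the 5 members called at FR2, TRIB3 and SESN2 kept their calls under every alternative run, and the count was 3 without the 2 libraries of animal 11 and 3 without animals 17, 19 and 21. The 4 calls at FR20 held under every alternative run. Between FR2 and FR8 no member was called by edgeR's quasi-likelihood test, by its likelihood ratio test or by DESeq2, with 2 at an unadjusted p under 0.05, where 2.52% of all genes rose and 3.43% fell.

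**Figure D2:**
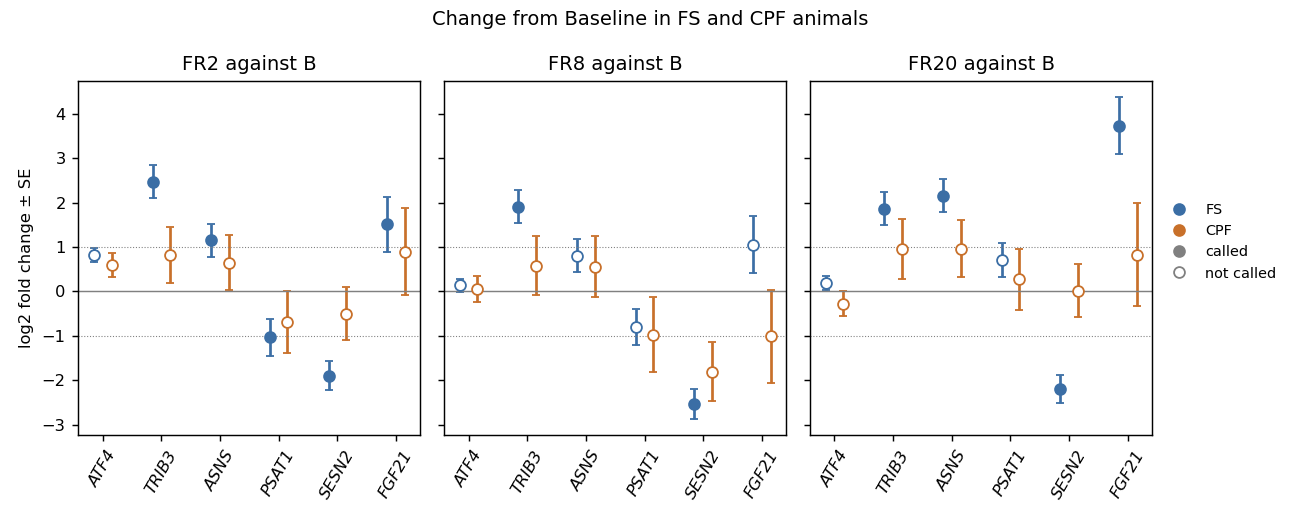
Log2 fold change from Baseline (point) with its SE (bar) for each member at FR2, FR8 and FR20 in FS (blue) and CPF (orange) animals, filled where the change was called, with dotted lines at a log2 fold change of 1 in either direction. Filled points are those of FS animals only: 5 at FR2, 2 at FR8 and 4 at FR20.

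There were 5 carbohydrate prefed animals. At Baseline, ASNS in CPF animals 3, 7, 8, 13 and 18 was 20.8, 30.2, 41.9, 23.6 and 6.16 CPM, so that 4 of 5 lay above the highest FS value of 19.3. FGF21 was 1.7, 13.7, 15.4, 39.9 and 1.92 CPM in the same order, against an FS median of 1.2, and 2 of the 5 were inside the range of all FS animals but number 20. TRIB3 was 21.2, 40.7, 21.6, 145 and 25.9 CPM, each above the FS median of 11.1. SESN2 was 61.2, 17.1, 35, 19.3 and 54.3 CPM, with 4 of 5 under the FS median of 58.8.

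None of the 6 members was called between CPF and FS animals at Baseline (0.0257% of 11688 genes were), with 5 at an unadjusted p under 0.05. The differences, CPF minus FS, were 1.33 ± 0.32 for ASNS (adjusted p = 0.14), 2.64 ± 0.75 for FGF21 (adjusted p = 0.234), 1.28 ± 0.54 for TRIB3 (adjusted p = 0.559), 0.50 ± 0.22 for ATF4 (adjusted p = 0.605) and −1.02 ± 0.49 for SESN2 (adjusted p = 0.636). ASNS was the 1 member called by DESeq2 (1.32, adjusted p = 0.0357) and by the likelihood ratio test (1.33, adjusted p = 0.0194), and it was also called without CPF animal 18 (1.56, adjusted p = 0.0327). Without CPF animal 13 the difference of TRIB3 was 0.38 (adjusted p = 1) and that of FGF21 1.82 (adjusted p = 0.902). Over all genes the unadjusted p was under 0.05 for 895 of 11688, edgeR's quasi-likelihood test called 3, DESeq2 31 and the likelihood ratio test 25. With the 3 FS libraries without albumin kept, the ATF4 difference turned to −0.81.

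After resuscitation the gap between the feeding groups was not called for any member at FR2 (0% of 11892 genes), FR8 (0% of 11951) or FR20 (0% of 12307), with 1, 2 and 0 members at an unadjusted p under 0.05. DESeq2 and the likelihood ratio test also called no member there. FGF21 gave 1.57 ± 0.74 at FR2 (adjusted p = 0.885) and 1.69 ± 0.71 at FR8 (adjusted p = 0.955), and ATF4 0.49 ± 0.20 at FR8 (adjusted p = 0.955). The FR8 difference of FGF21 was 0.93 without CPF animal 13. Over all genes, the unadjusted p was under 0.05 for 664, 617 and 400, DESeq2 called 0, 7 and 2 and the likelihood ratio test 2, 0 and 0.

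Within CPF animals no member was called against Baseline at FR2 (2.41% of all genes were), FR8 (8.84%) or FR20 (0.702%), with 1, 1 and 0 members at an unadjusted p under 0.05. ATF4 was above Baseline at FR2 in 5 of 5 animals, by 0.60 ± 0.27 (adjusted p = 0.207). ASNS was above Baseline in 5 of 5 at FR2, 28.7 to 42.6 CPM, but by 0.65 ± 0.62 (adjusted p = 0.593). TRIB3 changed by 0.82 ± 0.62 at FR2 (adjusted p = 0.479), 0.58 ± 0.66 at FR8 (adjusted p = 0.599) and 0.95 ± 0.67 at FR20 (adjusted p = 0.497). These TRIB3 values turned on single animals. Without animal 13 they were 1.33, 1.09 and 1.76, and the lowest with 1 animal left out were 0.47 without animal 7 at FR2, 0.27 without animal 8 at FR8 and 0.05 without animal 18 at FR20 (adjusted p = 0.994). ASNS at FR2 was 0.33 without animal 18.

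SESN2 came closest to a call in CPF animals. At FR8 it was 3.1, 30.8, 8.55 and 12.1 CPM in animals 7, 8, 13 and 18, below Baseline in 4 of 4, by −1.80 ± 0.66 (adjusted p = 0.0577). It passed with DESeq2 (−1.83, adjusted p = 0.0171), with the likelihood ratio test (−1.82, adjusted p = 0.0349), without CPF animal 8 (−2.39, adjusted p = 0.0427), without FS animals 17, 19 and 21 (−1.79, adjusted p = 0.0256) and without the libraries of FS animal 11 (−1.79, adjusted p = 0.0486). At FR2 and FR20 its changes were −0.50 ± 0.59 (adjusted p = 0.674) and 0.02 ± 0.59 (adjusted p = 0.99). With 1 animal left out the FR2 change ran from −0.98 (without animal 7) to −0.04 (without animal 3), and the FR20 change from −0.62 (without animal 13) to 0.64 (without animal 3). The FR20 levels of 10.3 to 75.2 CPM spanned nearly the whole range of FS animals at that time.

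At FR20 the CPF animals split by individual. Animal 18 held 190 CPM of FGF21 and 292 of TRIB3, the highest TRIB3 value of any biopsy used. Animal 13 held 0 of FGF21 (0 counts), 12.6 of TRIB3 and 3.14 of ASNS, while its SESN2 of 75.2 was the highest of the 5. The other 3 animals held 4.02 to 12.7 CPM of FGF21. The mean changes at FR20, 0.83 ± 1.15 for FGF21 (adjusted p = 0.77) and 0.96 ± 0.64 for ASNS (adjusted p = 0.47), thus rest on animals that moved in opposite directions. Without animal 18 they were −0.92 and 0.49, without animal 8 FGF21 gave 1.64, and without animal 13 ASNS gave 1.32. The hepatocyte marker list summed to 70596 CPM of the library total in animal 18 at FR20, the lowest of the 5, to 242320 in animal 13, the highest, and to 94328, 97659 and 101804 in animals 8, 3 and 7. Its part in the split was not tested.

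**Figure D3:**
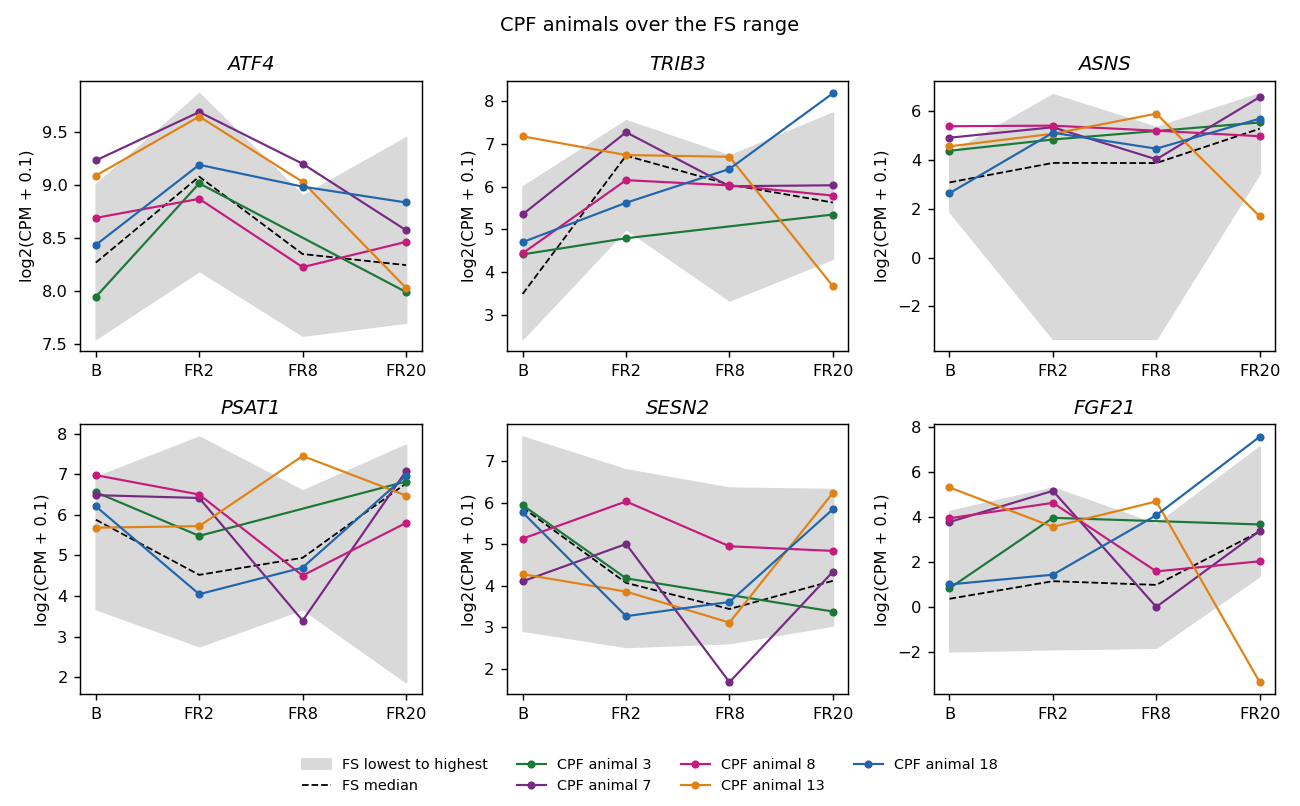
Level of each member as log2 of CPM plus 0.1 against timepoint in each of the 5 CPF animals (coloured lines), over the range from lowest to highest FS animal (grey) and the FS median (dashed). CPF animals 13 and 18 cross between FR8 and FR20 for FGF21 and TRIB3, ending at 0 and 190 CPM and at 12.6 and 292 CPM, and the line of animal 3 has no FR8 point.

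Whether the 2 feeding groups changed differently was tested directly. No member was called for a difference between the CPF change and the FS change at FR2, FR8 or FR20 (0% of 13667 genes each), with 2, 0 and 2 members at an unadjusted p under 0.05. DESeq2 and the likelihood ratio test called none either. At FR20 SESN2 gave 2.21 ± 0.69 (interval at 95% 0.87 to 3.56, adjusted p = 1) and FGF21 −2.90 ± 1.32 (−5.49 to −0.31, adjusted p = 1). At FR2 TRIB3 gave −1.65 ± 0.72 (−3.06 to −0.24, adjusted p = 1) and SESN2 1.39 ± 0.67 (0.07 to 2.71, adjusted p = 1). ASNS at FR20 gave −1.19 ± 0.73 (−2.62 to 0.25, adjusted p = 1). Without CPF animal 18 the FGF21 value at FR20 was −4.65 (adjusted p = 0.749), and the other animals left out in turn gave at the smallest −2.08 (without CPF animal 8). SESN2 at FR20 ran from 1.57 (without CPF animal 13) to 2.83 (without CPF animal 3), and SESN2 at FR2 was 0.91 without CPF animal 7. TRIB3 at FR2 was −1.14 without CPF animal 13, and ASNS at FR20 was −0.83 without CPF animal 8. These intervals are wide, and calls in FS animals beside none in CPF animals are not shown to differ. Over all genes the unadjusted p was under 0.05 for 397, 468 and 521, DESeq2 called 0, 2 and 2 and the likelihood ratio test 1, 0 and 0.

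Animals that died were compared with those that lived at each timepoint with a term for the feeding group. The study included only animals sampled at every timepoint, and all that died had an FR20 biopsy. Deaths before FR20 are therefore not covered. No member was called at B, FR2, FR8 or FR20 (0% of all genes at each), with 1, 1, 0 and 0 members at an unadjusted p under 0.05, and DESeq2 and the likelihood ratio test called none. FGF21 at Baseline was 0.273 to 19.2 CPM with a median of 13.7 in the 5 animals that died and 0.159 to 39.9 with a median of 1.24 in the 15 that lived. These medians pool the feeding groups. Within FS animals they were 0.285 CPM in the 3 that died and 1.21 in the 12 that lived. Within CPF animals they were 14.6 in the 2 that died and 1.92 in the 3 that lived. With the feeding term the difference was 1.64 ± 0.72 (adjusted p = 0.534), and without FS animal 20 it turned to −0.76. At FR2 the pooled medians were 24.8 CPM (died) and 2.85 (lived), those within FS animals 2.08 and 2.19, and those within CPF animals 30.4 and 11.8. The difference with the feeding term was 1.64 ± 0.71 (adjusted p = 0.856), and 0.12 (adjusted p = 1) without FS animal 20.

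At FR8 the order of the pooled FGF21 medians was the other way, 1.72 CPM in the animals that died and 2.21 in those that lived. Within FS animals these were 1.72 and 2.06, and within CPF animals 1.92 and 21.4. The difference with the feeding term was −1.53 ± 0.77 (adjusted p = 1). PSAT1 at FR8 was 10.4 to 48.8 CPM in animals that died and 12.7 to 175 in those that lived, −1.01 ± 0.54 (adjusted p = 1), and −1.71 without FS animal 2. SESN2 at FR20 was 11.4 to 28.5 CPM and 8.15 to 80 CPM, −0.89 ± 0.45 (adjusted p = 0.904). All these ranges overlapped. Over all genes the unadjusted p was under 0.05 for 998, 656, 265 and 642 at the 4 timepoints, DESeq2 called 10, 3, 0 and 0 and the likelihood ratio test 11, 8, 0 and 0.

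Members were then related to each other across FS animals within a timepoint, on log2 CPM (2 counts added first), for 15 pairs at 4 timepoints (60 relations). One relation, ATF4 with TRIB3 at FR2, passed for both Pearson's r and Spearman's rho after Benjamini-Hochberg adjustment of permutation p-values. It gave r = 0.74 (p = 0.00049, adjusted p = 0.019) and rho = 0.78 (p = 0.00025, adjusted p = 0.015) in permutation tests over 18 animals. Without the 2 animals farthest from the median of ATF4 r was 0.71, and without the library of animal 11 r was 0.73 and rho 0.78. FS animals with more ATF4 RNA at FR2 thus had more TRIB3 RNA in the same biopsy.

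**Figure D4:**
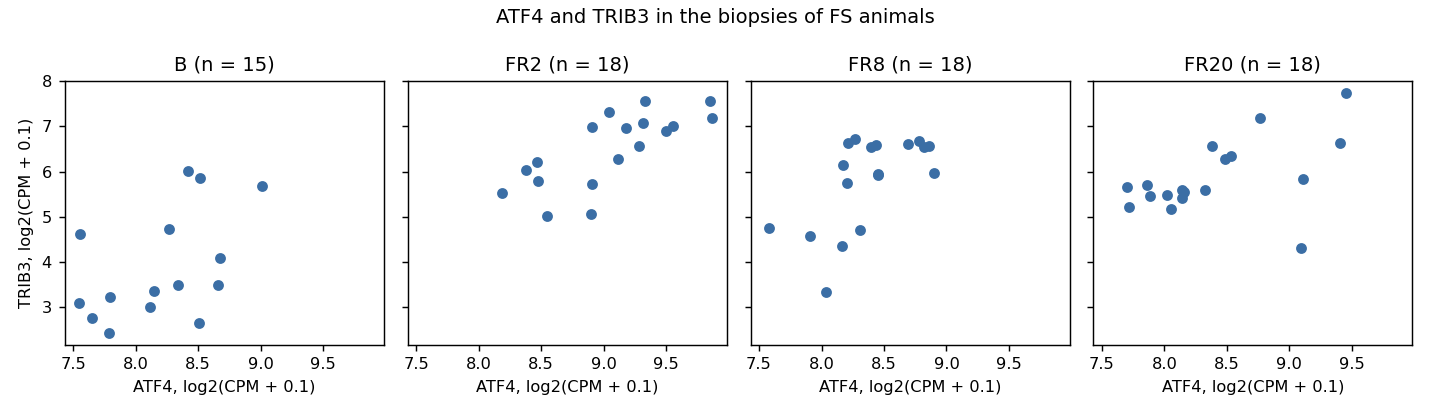
TRIB3 against ATF4 in each FS biopsy, both as log2 of CPM plus 0.1, in 1 panel per timepoint. At FR2 the 18 points rise together, from ATF4 at 292 to 935 CPM and TRIB3 at 32.1 to 188 CPM, and at FR20 the 4 points at the right are animals 9, 17, 19 and 21.

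ATF4 and TRIB3 at FR8 gave r = 0.63 and rho = 0.55 (permutation tests over 18 animals, adjusted p = 0.0661 and 0.145) and did not pass. At Baseline ASNS and FGF21 gave r = 0.64 and rho = 0.67 over 15 animals (permutation tests, adjusted p = 0.0748 and 0.12), with r = 0.51 without the 2 animals farthest from the median of ASNS.

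Some pooled relations ran across animals that stand apart or lie at 1 end of the range. At FR20, over 18 animals, ATF4 with SESN2 passed for r alone (permutation tests, r = 0.70, rho = 0.65, adjusted p = 0.019 and 0.084). So did ATF4 with PSAT1 (permutation tests, r = −0.73, rho = −0.48, adjusted p = 0.019 and 0.191). Without the 2 animals farthest from the median of ATF4 r was 0.57 and −0.55. PSAT1 with SESN2 passed for rho alone (permutation tests, r = −0.64, rho = −0.71, adjusted p = 0.0661 and 0.0384). Animals 9, 17, 19 and 21 hold the highest ATF4 values, and the same animals with animal 20 stand apart in PSAT1. At FR2, ASNS with FGF21 passed for r alone without the library of animal 11 (permutation tests over 17 animals, r = 0.80, rho = 0.69, adjusted p = 0.0096 and 0.0637). Animals 9, 10, 19 and 20 stand apart there in ASNS. Relations were therefore computed within the remaining animals for 5 pairs chosen after their values were seen, with p-values adjusted over these 5. Leaving out the animals with the highest values narrows the range of a gene, which by itself can lower r. A low value within the remaining animals thus does not show that a relation is absent. A high value does not show that one is present either, since the animals left out were chosen after their values were seen. ATF4 with SESN2 at FR20 gave r = 0.31 and rho = 0.36 over 14 animals (permutation tests, p = 0.287 and 0.209, adjusted p = 0.358 and 0.299). ATF4 with PSAT1 gave r = 0.15 and rho = 0.10 over 13 (permutation tests, p = 0.625 and 0.738, adjusted p = 0.625 and 0.738), and PSAT1 with SESN2 gave −0.58 and −0.52 over the same 13 (permutation tests, p = 0.0397 and 0.0713, adjusted p = 0.0993 and 0.178). ASNS with FGF21 at FR2 gave r = 0.39 and rho = 0.35 over 13 animals (permutation tests, p = 0.193 and 0.239, adjusted p = 0.322 and 0.299). ATF4 with TRIB3 at FR20 gave r = 0.80 and rho = 0.59 over 14 animals (permutation tests, p = 0.00037 and 0.0301, adjusted p = 0.00185 and 0.15). These p-values do not allow for the choice of animals, and r was 0.77 without the 2 animals farthest from the median of ATF4. Over all 18 animals this pair passed for neither coefficient (permutation tests, r = 0.50, rho = 0.55, adjusted p = 0.147 and 0.145). There r was 0.17 without the 2 animals farthest from the median of ATF4. Within the remaining animals none of the 5 pairs passed for both.

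Across all 88 libraries, timepoints and feeding groups together, the genes with a symbol whose log2 CPM followed ATF4 most closely were ZFP2 (r = 0.87), RIPK2 (0.85), SERTAD1 (0.84), EIF1 (0.82) and STXBP3 (0.82). Among the members, TRIB3 gave r = 0.62 and ranked 333 of 13666 genes. FGF21 gave 0.30 (rank 2299), ASNS 0.16 (3615), SESN2 −0.03 (6376) and PSAT1 −0.41 (12236). Without the FR2 and FR8 libraries of animal 11, in which ASNS is listed at 0, ASNS gave 0.34 (rank 2111 of 13666) over 86 libraries, TRIB3 0.61 (360), FGF21 0.29 (2513), SESN2 −0.01 (6223) and PSAT1 −0.39 (12039), and the 5 closest genes were the same. These are descriptions over libraries that share animals, timepoints and scaling.

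Other genes of the pathway were read from 5 lists of 16, 14, 12, 20 and 20 symbols, of which 12, 10, 9, 17 and 12 matched. The first holds eIF2 kinases with subunits, exchange factors and phosphatase subunits around eIF2. Its symbols EIF2AK4, EIF2S1, EIF2S3 and EIF2B1 matched no identifier, so the kinase EIF2AK4 and the α subunit, EIF2S1, were not measured here. None of its 12 matched genes was called in FS animals at FR2, FR8 or FR20. Over all genes 5.17%, 4.44% and 4.68% rose and 5.85%, 7.39% and 5.25% fell there. The list's median log2 fold changes were 0.23, 0.05 and −0.06 beside −0.04, 0.00 and 0.04 over all genes. PPP1R15A, the inducible subunit that directs dephosphorylation of eIF2, ran from 12.4 to 57.9 CPM at Baseline (median 22.2) and from 7.29 to 282 at FR2 (median 45.7) in FS animals, a change of 0.59 ± 0.31 (adjusted p = 0.114). In CPF animals it was the 1 gene of this list that was called, at FR2, from a median of 17.9 to 99.2 CPM. The change was 1.82 ± 0.55 (adjusted p = 0.0483, close to the threshold), where 2.41% of all genes were called. None of the 12 genes was called for a difference between the CPF and FS changes at FR2 (0% of all genes were).

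Of 10 genes for serine, one-carbon and other amino acid synthesis, 1 rose and 1 fell at FR2, 1 rose and 2 fell at FR8, and 2 rose at FR20 in FS animals. Over all genes 5.17%, 4.44% and 4.68% rose and 5.85%, 7.39% and 5.25% fell at these timepoints. MTHFD1L, the mitochondrial formyl-tetrahydrofolate synthetase, rose at all 3 timepoints, from a median of 1.15 CPM (0 to 2.28) at Baseline to 3.44 (2.14 to 8.47) at FR2 and 4.53 (1.84 to 10.9) at FR20. Its changes were 1.87 ± 0.27 (adjusted p = 2.44e-07), 1.34 ± 0.27 (adjusted p = 5.75e-05) and 2.19 ± 0.27 (adjusted p = 9.18e-09). MTHFD2, its partner dehydrogenase in mitochondria, rose at FR20 by 1.25 ± 0.49 (adjusted p = 0.0397) from a low level, a median of 0.157 to 0.706 CPM.

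PSPH, which completes serine synthesis after PSAT1, fell at FR2 as PSAT1 did, by 1.43 ± 0.43 on the log2 scale (adjusted p = 0.00514), from a median of 5.3 to 1.48 CPM. MTHFD1, the cytosolic one-carbon enzyme, fell by 1.06 ± 0.23 at FR8 (adjusted p = 0.000197), from 295 to 108 CPM at the median. GPT2, mitochondrial alanine transaminase, fell by 1.19 ± 0.39 at FR8 (adjusted p = 0.0114), from 46.1 to 17.8 CPM. The list's median log2 fold changes were 0.00, −0.72 and −0.38 in FS animals. In CPF animals MTHFD1 was the 1 gene of this list that was called, at FR8, −1.27 ± 0.44 (adjusted p = 0.0432), where 8.84% of all genes were called.

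Amino acid transporters gave 4 increases among 10 identifiers at FR2 in FS animals, of which 2 belong to the same symbol, where 5.17% of all genes rose. SLC38A1, a glutamine carrier, rose by 1.72 ± 0.41 (adjusted p = 0.000623), from a median of 1.81 to 6.91 CPM. SLC1A5, which exchanges neutral amino acids, rose by 1.04 ± 0.24 (adjusted p = 0.000341), from 8.39 to 19.8 CPM. SLC7A1, the cationic amino acid transporter, rose by 1.09 ± 0.40 (adjusted p = 0.0243) on ENSSSCG00000009324 and by 1.23 ± 0.34 (adjusted p = 0.00245) on ENSSSCG00000029456. At FR8 SLC38A1 was still up, 1.47 ± 0.41 (adjusted p = 0.00301), and SLC7A1 on ENSSSCG00000009324 had turned to −1.21 ± 0.43 (adjusted p = 0.0192). Over all genes 4.44% rose and 7.39% fell at FR8. At FR20 none of the 10 was called, where 4.68% of all genes rose and 5.25% fell.

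The cytosolic aminoacyl-tRNA synthetases, which charge tRNAs, had list medians of 0.60, 0.52 and 0.70 at FR2, FR8 and FR20 in FS animals. Of 17 genes 2 rose at FR2 (5.17% of all genes did), 1 at FR8 (4.44%) and 1 at FR20 (4.68%), since most changes stayed under a log2 fold change of 1. YARS1, the tyrosine enzyme, rose at all 3, by 1.57 ± 0.22 (adjusted p = 1.86e-07), 1.22 ± 0.22 (adjusted p = 1.18e-05) and 1.08 ± 0.22 (adjusted p = 0.000116), with medians of 6.36, 19.4, 16.2 and 13.3 CPM from B to FR20. NARS1, the asparagine enzyme, rose at FR2 by 1.04 ± 0.12 (adjusted p = 1.16e-09), from a median of 56.7 to 103 CPM. In CPF animals none of the 17 was called (2.41%, 8.84% and 0.702% of all genes were), with medians of 0.22, 0.30 and 0.19.

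Of 12 further transcription factors and stress targets, 1 rose at FR2 (5.17% of all genes did) and 1 at FR8 (4.44%) in FS animals. CEBPB, NUPR1, DDIT4 and GDF15 were among the symbols of this list that matched no identifier. ATF3 was at 0 in the FR2 and FR8 libraries of FS animal 11, which were kept here. None was called at FR20, where 4.68% of all genes rose and 5.25% fell. STC2, a secreted glycoprotein, rose at FR2 by 1.49 ± 0.37 (adjusted p = 0.00105), from a median of 0.709 to 1.93 CPM. HSPA5, the chaperone of the endoplasmic reticulum, rose at FR8 by 2.11 ± 0.43 (adjusted p = 6.69e-05), from a median of 562 CPM (304 to 7495) to 3503 (495 to 8809). HSPA5 was also called in CPF animals at FR8, 2.85 ± 0.75 (adjusted p = 0.00949), as was ATF6, 1.44 ± 0.42 (adjusted p = 0.0174), the sensor of endoplasmic reticulum stress upstream of it. Of all genes 8.84% were called there. ATF6 was not called in FS animals, but its medians from B to FR20 were 6.41, 16, 16.8 and 17.7 CPM in FS and 6.65, 15.3, 21.7 and 16.8 CPM in CPF animals. No gene of this list was called for a difference between the CPF and FS changes at FR8 (0% of all genes were). The list's medians in FS animals were 0.49, 0.32 and 0.34.

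**Figure D5:**
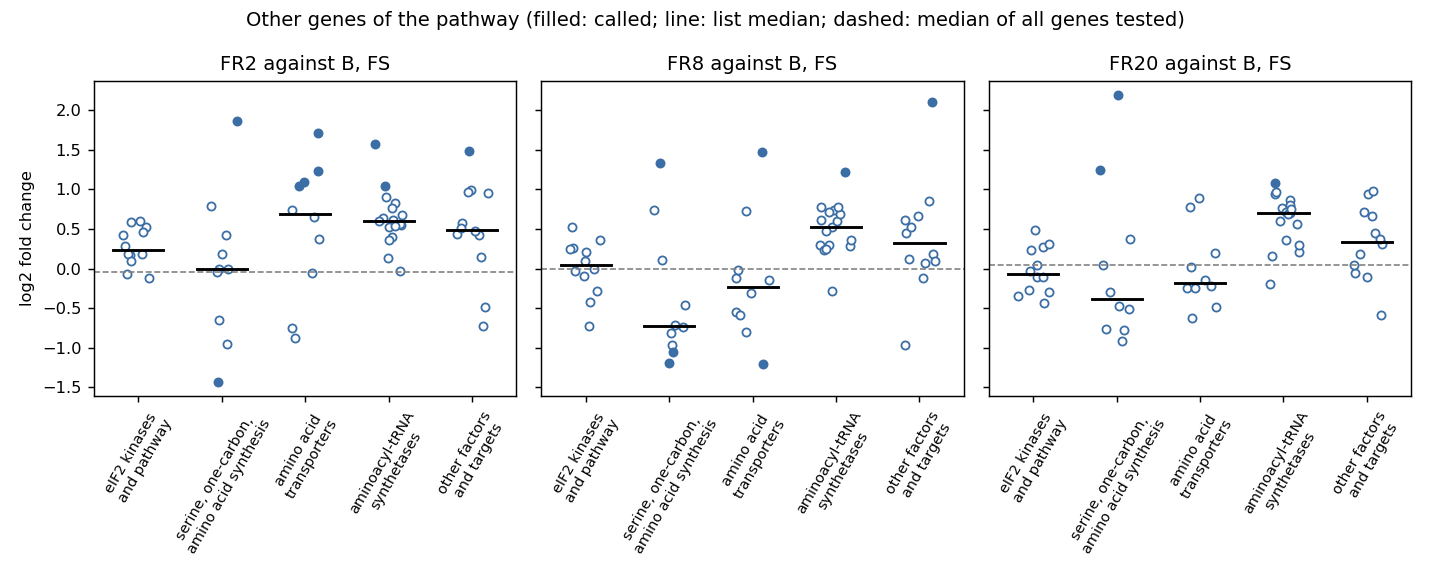
Log2 fold change from Baseline in FS animals of each gene of the 5 other pathway lists at FR2, FR8 and FR20, filled where called, with a line at each list's median and a dashed line at the median of all genes tested. The synthetase list has its median at 0.60, 0.52 and 0.70, and no gene of the eIF2 list is filled.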

How the data were processed

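Per the labels and the study's methods, the authors sequenced TruSeq RNA libraries of pig liver biopsies (CASAVA 1.8.2), aligned reads to Sscrofa10.2 with TopHat 1.5.0 and made raw counts per Ensembl gene with HTSeq-count. The counting mode and strand setting are not given in the sources used here. The deposited counts were not normalized, and all 92 columns matched a library by title (0 unmatched).

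Members and lists were chosen with earlier results of these data known. Symbols came from a gene name table (11804 identifiers) and, for 700 more, ATF4 and TRIB3 among them, from the study's tables. In RefSeq's Sscrofa11.1 annotation no other gene overlapped the 6 measured members. Tests were run with edgeR 4.0.16 in R 4.3.3 on genes whose CPM summed to 10 or more across a fit: TMM scaling (factors 0.76 to 1.45), 2-sided quasi-likelihood F tests and, for changes, animal terms beside timepoint terms kept apart by feeding group. CPF against FS, and animals that died against those that lived, were fitted on 1 timepoint at a time. The SE is the log2 fold change over the root of F, and intervals at 95% are 1.96 SE.

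Biopsies of the same animal had a median residual correlation of 0.21 (94 of 126 pairs over 0.1) and those of different animals −0.02 (414 of 1791), so animal terms were kept. Permutation tests used 100000 resamples. No sequencing batch is given. Named genes were all members, called genes of the lists in FS changes (up to 4 per direction) and the 5 most like ATF4. Pathway genes in CPF animals, and PPP1R15A, were named after their values were seen. The fits were tested on simulated data. Alternatives were RLE size factors, no filter, filterByExpr, DESeq2 1.42.0, edgeR's likelihood ratio test, the adjusted p alone, no animal terms, the 3 Baseline libraries kept and leaving out animals. Leaving out the 2 libraries of FS animal 11, animals 17, 19 and 21, each FS animal, or animals that stand apart in a relation was chosen after seeing the data. Python 3.11.15 served for tables, with pandas 2.3.3, and for figures, with matplotlib 3.10.9.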

Additional observations from a re-analysis of the deposited data

Results flagged for a closer look

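The Baseline libraries of FS animals 17, 19 and 21, left out for lack of albumin, held 3323, 4293 and 3451 CPM of the library total of ATF4, against 158 to 440 in the 15 FS Baseline libraries used. TRIB3 was 77.1 and 149 in those of animals 19 and 21, above the highest of the 15, which was 71. In the same 3 libraries PSAT1 was 1.53, 1.23 and 1.43, below the lowest of the 15, and ASNS lay inside the range. These libraries hold almost no albumin RNA, so their labelled tissue is not borne out by its defining marker, and the source of the ATF4 counts was not tested.

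Within CPF groups of 4 or 5 animals, 24 combinations of member and timepoint were checked for a value far from the others. Dixon's criterion was applied to CPM, not to log2 CPM. Chance meets it in about 1 of 20 only where values are normally distributed, which was not tested for CPM. It was met 4 times, a count that cannot be set against chance here. PSAT1 at FR8 was 175 CPM in animal 13 against 10.4 to 25.9 in the other 3. TRIB3 at Baseline was 145 CPM in the same animal against 21.2 to 40.7. At FR20 animal 18 held 292 CPM of TRIB3 against 12.6 to 65.4 and 190 CPM of FGF21 against 0 to 12.7. What sets animals 13 and 18 apart was not tested.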

How the results depend on the processing

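Of 347 recomputed counts of members called or related, 325 stayed within 1.5 times the main count, and of 1170 recomputed fold changes of single members 1119 kept their direction and call. The 5 calls of FR2vB in FS animals became 3 without a replicate block (no animal terms), 3 without FS animals 17, 19 and 21, 3 without the FR2 and FR8 libraries of FS animal 11, and 3 to 5 with 1 animal left out. The 0 calls of FR8vB in CPF animals became 1 with DESeq2, with the likelihood ratio test, without FS animals 17, 19 and 21 and without the libraries of FS animal 11, and 0 to 1 with 1 animal left out. The 0 calls of CPF against FS at B became 1 with DESeq2 and with the likelihood ratio test, and 0 to 1 with 1 CPF animal left out. The 0 calls of FR8vFR2 in FS animals became 1, ATF4, by the adjusted p alone. The 1 relation became 3 with the 3 Baseline libraries without albumin kept. With those libraries kept, ATF4 turned to −0.49 at FR8 and −0.57 at FR20 in FS animals and to −0.81 for CPF against FS at B. With 1 animal left out, FGF21 at FR20 in CPF animals ran from −0.92 (without animal 18) to 1.64, FGF21 for died against lived at B from −0.76 (without FS animal 20) to 1.92, and SESN2 at FR20 in CPF animals from −0.62 (without animal 13) to 0.64, with −0.03 without animal 18. The replicate block changed no other count of calls by over 1.5 times. The causes were not tested. For the 15 FS animals that lived, refits without 1 animal kept the dispersion trend of the whole data and covered changes from Baseline only. The planned search of promoters for motifs was not run.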
